A study of Danio rerio with 12 samples.

Results

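Unplaced contigs are stretches of assembled zebrafish DNA that the genome build GRCz11 holds without giving them a place on a chromosome. The regions described here are those of both deposited ATAC-seq tables whose sequence name begins with chrUn_, and they were set against regions of chr1 to chr25 at a like accessibility level. The rule uses names alone and no measured value. It takes 758 of the 35040 TDCIPP-table regions (2.16%), on 387 contigs, and 1341 of the 45019 DAC-table regions (2.98%), on 516 contigs. In all, 2099 of 80059 regions were unplaced. They lay on 552 contigs, of which 351 had regions in both tables, 36 in the TDCIPP table alone and 165 in the DAC table alone.

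ATAC-seq uses the Tn5 transposase to cut and tag DNA that is not wrapped tightly in chromatin, so that the number of reads over a region reports how open it is. Contigs commonly stay unplaced because they carry repeats, recent duplications or satellite arrays, which occur in near-identical copies and cannot be ordered with certainty. A repeat can hold more copies in the animal than in the assembly, and reads from all of these copies then fall on the copies that were assembled. Such sequence is often kept closed by DNA methylation and repressive histone marks, and decitabine lowers DNA methylation.

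Whole wild-type embryos of AB/Tuebingen parents were collected at 6 hours post fertilization, close to the onset of gastrulation. The 12 libraries form 4 groups of 3. Embryos of the TDCIPP group were in 3.12 µM TDCIPP, a chlorinated organophosphate used as a flame retardant, from soon after fertilization, and those of the DAC group in 100 µM decitabine (DAC), a nucleoside analog that is built into DNA and blocks the enzymes that methylate it. Each treatment had 3 DMSO libraries of its own, from embryos in 0.1% DMSO, the solvent. Embryos were pooled, and the labels do not say whether the libraries of a group came from separate clutches, so the spread behind the authors' p-values may be a technical one. In whole embryos, a change of accessibility per cell and a change in the mix of cells cannot be told apart. For decitabine the file header reads 5AzaC, a short form of the related compound 5-azacytidine, while the labels say decitabine, whose name is kept here.

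For each region the authors' deposited tables give a level, which is the mean normalized count of reads in the 6 libraries on a log2 scale, and the same for the treated and for the DMSO libraries. They also give a log2 fold (treated minus DMSO), an unadjusted p and an adjusted p, the FDR, from DiffBind. A region is called here where the FDR is under 0.05. The tables have no column for a single library, so no SD could be computed for any value below, and the spread between libraries enters only through the authors' p-values. Summed over all regions, a library averaged 7.83 M normalized reads for TDCIPP and its DMSO controls and 1.97 M for DAC and its DMSO controls. Normalized reads in the median unplaced region came to 103 for TDCIPP and 19.4 for DAC.

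The median unplaced region was wider than that of chr1 to chr25, and a larger share of unplaced regions stood at very high levels. In the TDCIPP table their median level was 6.685, against 6.42 on chr1 to chr25, and their median width 1314 bp, against 1185 bp. For DAC the median level was 4.28, against 4.18 on chr1 to chr25, and the median width 1279 bp, against 1125 bp. After division of the reads by width, the median level per kb of the TDCIPP table was 6.23 for unplaced regions and 6.16 for chr1 to chr25. That of the DAC table was 3.83 for unplaced regions and 3.93 for chr1 to chr25, so the order of its medians turned round.

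The upper end of the range was counted in several ways. When chr1 to chr25 regions were cut by level into 10 classes of equal size, 137 of 758 unplaced TDCIPP-table regions (18.1%) and 192 of 1341 unplaced DAC-table regions (14.3%) fell in the highest class. Regions at least 4 kb wide made up 3.69% of unplaced regions and 1.16% of chr1 to chr25 for TDCIPP, and 4.40% of unplaced regions and 1.75% of chr1 to chr25 for DAC. A level of 10 or more was reached by 46 unplaced regions (6.07%) and 1.92% of chr1 to chr25 regions for TDCIPP, and by 18 unplaced regions (1.34%) and 0.331% of chr1 to chr25 regions for DAC.

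Single contigs held much of this signal. The authors' deposited table for TDCIPP has its 3 highest unplaced levels at chrUn_KN150351v1:43801-48264 (14.80 in TDCIPP and 14.97 in DMSO libraries), chrUn_KN149688v2:57218-98198 (14.64 in TDCIPP and 14.56 in DMSO libraries) and chrUn_KN147652v2:190561-192573 (13.80 in TDCIPP and 13.92 in DMSO libraries). None of the 3 was called, with unadjusted p between 0.17 and 0.523 in the authors' deposited table. The region on chrUn_KN149688v2 spans 40981 bp as a single region, the widest of all unplaced regions in that table. In the authors' deposited table for DAC the 3 highest levels were at chrUn_KN149693v1:4750-24293 (13.18 in DAC and 13.52 in DMSO libraries), chrUn_KN150271v1:219-2204 (13.20 in DAC and 13.42 in DMSO libraries) and chrUn_KN149693v1:30737-39224 (12.43 in DAC and 12.77 in DMSO libraries), with unadjusted p between 0.515 and 0.657. The 5 contigs with the most reads held 34.4% of all unplaced reads for TDCIPP and 44.3% for DAC.

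As a share of all normalized reads in regions, unplaced contigs held 3.93% in TDCIPP libraries and 3.80% in their DMSO libraries. They held 5.67% in DAC libraries and 6.16% in their DMSO libraries. Most of the DAC gap lay on chrUn_KN149693v1 (0.820% in DAC and 1.14% in DMSO libraries) and chrUn_KN149692v1 (0.456% in DAC and 0.607% in DMSO libraries). Of the 1341 unplaced DAC-table regions, 800 had a fold above 0 and 527 below, so the gap does not describe unplaced contigs as a set. No test of these shares is possible without values of single libraries.

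Under TDCIPP, 12 of the 758 unplaced regions were called, 5 higher and 7 lower than in DMSO libraries. That is 1.58% of them, against 1.28% of all 35040 regions of the table. Calls over the whole table made up 0.362% of regions in the higher direction and 0.916% in the lower. The share on unplaced contigs is thus close to the background, and it is read here as a description of the 12 regions only. In the authors' deposited table every region with a level below 5.71 has an adjusted p of 1, so 179 unplaced regions could not be called whatever their fold, among them 13 with an unadjusted p under 0.05. Of the 579 unplaced regions at or above that level, 2.07% were called, against 1.73% of the 22075 regions of chr1 to chr25 at or above it.

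The 7 regions that fell lay on 6 contigs. The authors' deposited table gives the smallest FDR at chrUn_KN149795v1:20522-21695, with levels of 8.36 in TDCIPP and 9.13 in DMSO libraries (log2 fold -0.77, FDR 6.67e-07). Farther left on the contig, the authors' deposited table gives chrUn_KN149795v1:14307-16347 levels of 8.05 in TDCIPP and 8.74 in DMSO libraries (log2 fold -0.69, FDR 0.00102). These were the only called regions on the contig. Its other 2 regions had log2 folds of -0.17 and -0.29 and were not called (FDR 0.605 and 0.833 in the authors' deposited table).

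The lowest log2 fold among the called regions was -0.94, at chrUn_KN149797v1:50299-51249 (5.62 in TDCIPP and 6.56 in DMSO libraries, FDR 0.00118 in the authors' deposited table). The other 4 falls stood closer to the threshold. Their log2 folds in the authors' deposited table were -0.40 at chrUn_KZ116011v1:47111-48748 (FDR 0.0146), -0.65 at chrUn_KN150120v1:9602-10830 (0.032), -0.75 at chrUn_KN149723v1:9853-11895 (0.04) and -0.66 at chrUn_KZ115985v1:530-2862 (0.0428). The median log2 fold of the 7 was -0.69, against -0.47 for the 272 regions of chr1 to chr25 that were called lower. These sets were not matched for level. Of the 272, 154 were in the highest level class, against 2 of the 7, so the medians cannot be compared directly.

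Of the 5 regions that rose, 4 lay on chrUn_KN149692v1 and are described below with the rest of that contig. The fifth was chrUn_KN147651v2:32523-33320, at 6.49 in TDCIPP and 5.65 in DMSO libraries, with log2 fold 0.84 and FDR 0.0101 in the authors' deposited table. Its contig has 21 regions in the TDCIPP table, as many as chrUn_KN149691v1 and more than any other contig. Of these 21, 13 had a fold above 0 and 6 below, with a median of 0.03, and no other was called. The median log2 fold of the 5 regions called higher was 0.50, against 0.65 for the 111 such regions of chr1 to chr25. These sets were not matched for level either. Of the 5, the 4 neighbours on chrUn_KN149692v1 were in the highest level class, against 13 of the 111.

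The last called region, chrUn_KN149692v1:21130-23703, has FDR 0.0483 in the authors' deposited table. Just outside stood chrUn_KN149789v1:2035-5305 (log2 fold -0.36, FDR 0.0514) and chrUn_KN150504v1:3382-5038 (-0.50, 0.0533). In all, 15 unplaced regions had an adjusted p from 0.05 to under 0.1, a range not counted over the whole table. Among them were chrUn_KN150289v1:1448-3178, which has the highest log2 fold (0.56, FDR 0.0936 in the authors' deposited table) of the unplaced regions at or above their median level, and chrUn_KN150212v1:14371-15782 (0.52, 0.0899). The log2 folds of 0.55 at chrUn_KN150270v1:16508-21167 and 0.51 at chrUn_KN147651v2:109195-111132 went with larger FDR values in the authors' deposited table, 0.517 and 0.142. On the low side an FDR in that range went with chrUn_KN150173v1:11810-13302, for which the authors' deposited table gives log2 fold -0.55 and FDR 0.09.

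By the unadjusted p, 98 unplaced regions (12.9%) were under 0.05 in the TDCIPP table, 52 of them higher and 46 lower. Over the whole table this share was 9.93%, with 4.77% higher and 5.16% lower, and on chr1 to chr25 at a like level it was 11.3%. The smallest unadjusted p of an unplaced region that could not be called was 6.63e-05, at chrUn_KN147552v2:1314-3175. It had levels of 5.73 in TDCIPP and 4.48 in DMSO libraries and the highest log2 fold of all unplaced regions in the authors' deposited table, 1.26.

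The folds of all 758 unplaced regions centred close to 0. Their median log2 fold was 0.03, against 0.01 for chr1 to chr25 at a like level, where like level means the same one of 10 classes of equal size of chr1 to chr25. A fold above 0 was found in 415 regions, 54.7% (95% Clopper-Pearson interval 51.1% to 58.3%, counting error only), against 48.4% on chr1 to chr25 weighted to the same classes. Neighbouring regions share contigs, and the interval takes no account of that.

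**Figure D1:**
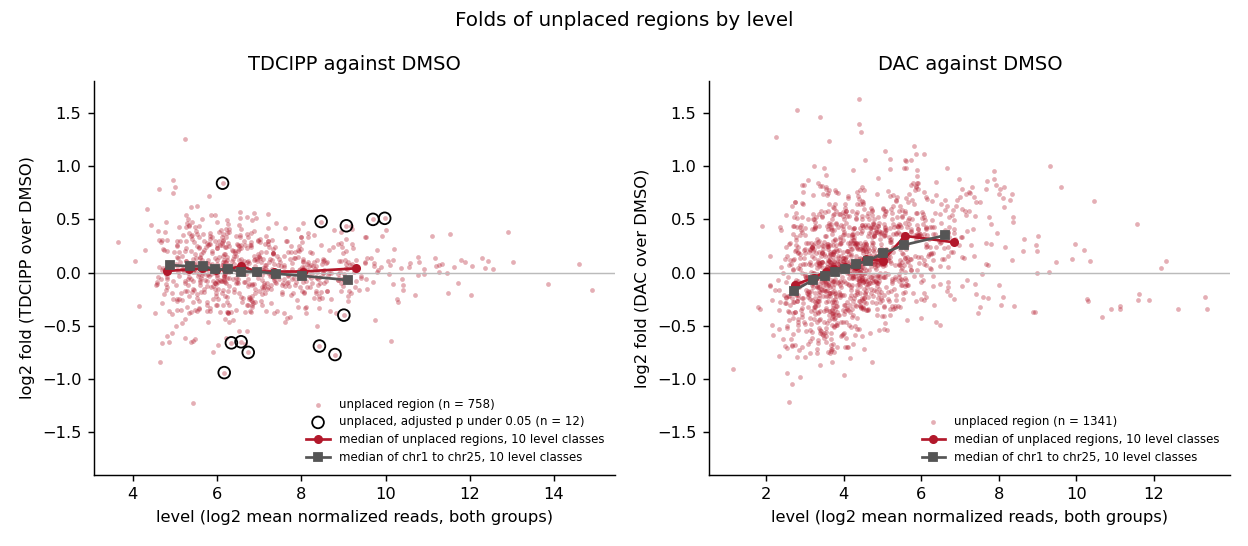
The log2 fold of each unplaced region (vertical) is plotted against its level (horizontal, log2 mean normalized reads) for TDCIPP over DMSO on the left and DAC over DMSO on the right, with the medians of unplaced regions and of chr1 to chr25 in 10 classes of level. The 12 circled regions were called (adjusted p under 0.05), and in the highest class the unplaced median lies above that of chr1 to chr25 on the left (0.04 against -0.07) and below it on the right (0.285 against 0.35).

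The gap in direction was widest in the highest of the 10 level classes. In the highest class, 81 of 137 unplaced regions had a fold above 0 under TDCIPP, 59.1% (interval 50.4% to 67.4%), against 34.0% of the 2991 regions of chr1 to chr25 in that class. The median log2 folds of that class were 0.04 for unplaced regions and -0.07 for chr1 to chr25. In the other 9 classes the interval of the unplaced share held the share of chr1 to chr25. Of the highest class, 4 unplaced regions were called higher and 2 lower, against 13 called higher and 154 called lower (5.15%) on chr1 to chr25. All 4 that were called higher lay on chrUn_KN149692v1.

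This class was singled out after its values were seen. Without chrUn_KN149692v1 and chrUn_KN149693v1, 55.2% of the remaining 125 unplaced regions of the class had a fold above 0. With 1 value per contig the share was 50.6% of 77 contigs and the median difference from chr1 to chr25 was 0.08 in log2 fold. With the class split into 5 finer classes of level, the share of chr1 to chr25 was 34.4%.

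**Figure D2:**
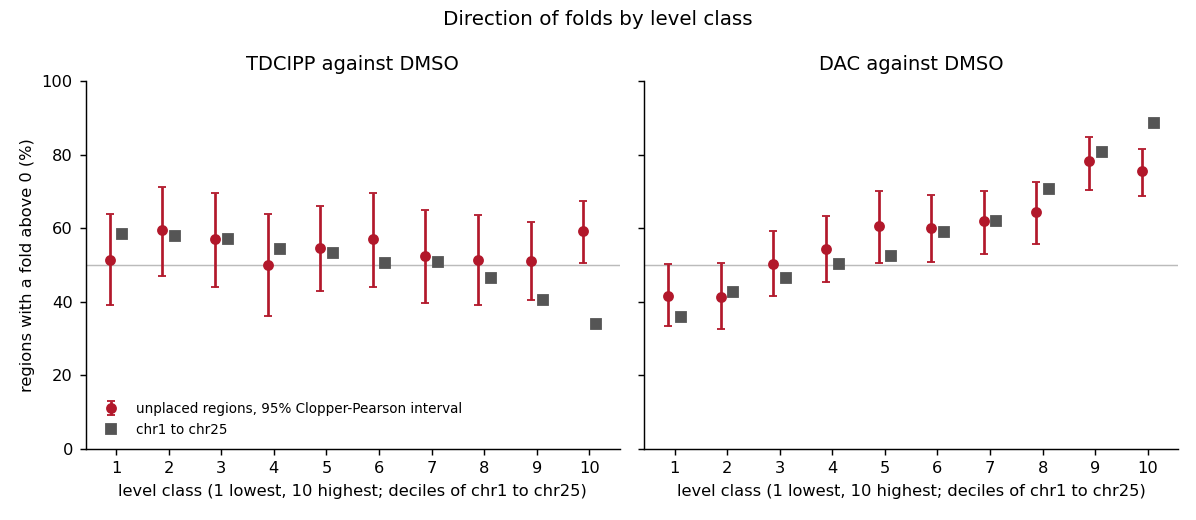
The share of regions with a log2 fold above 0 (vertical, percent) is plotted for each of 10 classes of level (horizontal, class 10 highest), with unplaced regions as circles with 95% Clopper-Pearson intervals and chr1 to chr25 as squares. In class 10 the unplaced share is 59.1% against 34.0% on chr1 to chr25 for TDCIPP, and 75.5% against 88.7% for DAC.

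A pair of contigs, chrUn_KN149692v1 and chrUn_KN149693v1, had every TDCIPP fold above 0 (singled out after their values were seen). On chrUn_KN149692v1 the 7 regions cover 54.8% of the stretch from the first base of the contig to 36193, where the last region ends. In the authors' deposited table, chrUn_KN149692v1:31546-36193 had levels of 9.93 in TDCIPP and 9.43 in DMSO libraries (log2 fold 0.50, FDR 0.00864), and chrUn_KN149692v1:10462-14554 had 10.21 in TDCIPP and 9.70 in DMSO libraries (0.51, 0.0148). The same table gives log2 folds of 0.48 at chrUn_KN149692v1:26049-27282 (FDR 0.0314) and 0.44 at chrUn_KN149692v1:21130-23703 (0.0483). TDCIPP libraries were thus higher in each of these 4 called regions.

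The other 3 regions of chrUn_KN149692v1 had log2 folds of 0.33, 0.40 and 0.41 and unadjusted p 0.00667, 0.00175 and 0.00169 in the authors' deposited table, and they were not called. All 7 belong to the highest level class, where 2.77% of the chr1 to chr25 regions had a log2 fold of at least 0.33. The 7 regions are neighbours on 1 contig and are not independent of each other. On chrUn_KN149693v1 the 7 regions, also neighbours, had log2 folds from 0.16 to 0.44. Of these, 4 had an unadjusted p under 0.05 and none was called. In their level classes 13.9% of the chr1 to chr25 regions had a log2 fold of at least 0.16. An unadjusted p under 0.05 was found in 10.5%, 13.3% and 23.4% of chr1 to chr25 regions in classes 8, 9 and 10.

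Under DAC, 9 of the 10 regions of these contigs had folds below 0, and none passed a threshold. The 5 DAC-table regions of chrUn_KN149692v1 had log2 folds from -0.34 to -0.23, with unadjusted p from 0.492 to 0.705 in the authors' deposited table. All 5 belong to the highest level class, where chr1 to chr25 had a median log2 fold of 0.35 and 5.55% of its regions had -0.23 or less. The levels of 4 of the 5 were 10.29 to 11.86, and regions of chr1 to chr25 at a level of 10 or more had a median log2 fold of -0.20, also below 0. The widest, chrUn_KN149692v1:25806-36860, had levels of 11.72 in DAC and 11.98 in DMSO libraries. On chrUn_KN149693v1 the 5 DAC-table regions had log2 folds from -0.37 to 0.02, with unadjusted p from 0.487 to 0.98.

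These contigs carried a large part of the unplaced reads in the DAC table, 16.5% for chrUn_KN149693v1 and 8.95% for chrUn_KN149692v1. Of all reads in regions, chrUn_KN149693v1 took 0.820% in DAC libraries and 1.14% in their DMSO libraries, and chrUn_KN149692v1 took 0.456% in DAC libraries and 0.607% in their DMSO libraries. In the TDCIPP table chrUn_KN149693v1 took 0.115% in TDCIPP libraries and 0.088% in their DMSO libraries, and chrUn_KN149692v1 took 0.076% in TDCIPP libraries and 0.055% in their DMSO libraries. In these shares, the DMSO libraries of the 2 tables differed more from each other than either treatment differed from its own DMSO libraries. The tables cover unlike regions, however. On chrUn_KN149692v1 these span 19.8 kb for TDCIPP and 29.1 kb for DAC, and on chrUn_KN149693v1 23.8 kb and 37.5 kb. The tables were also normalized apart, so that gap is not like for like, and it was not tested.

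**Figure D3:**
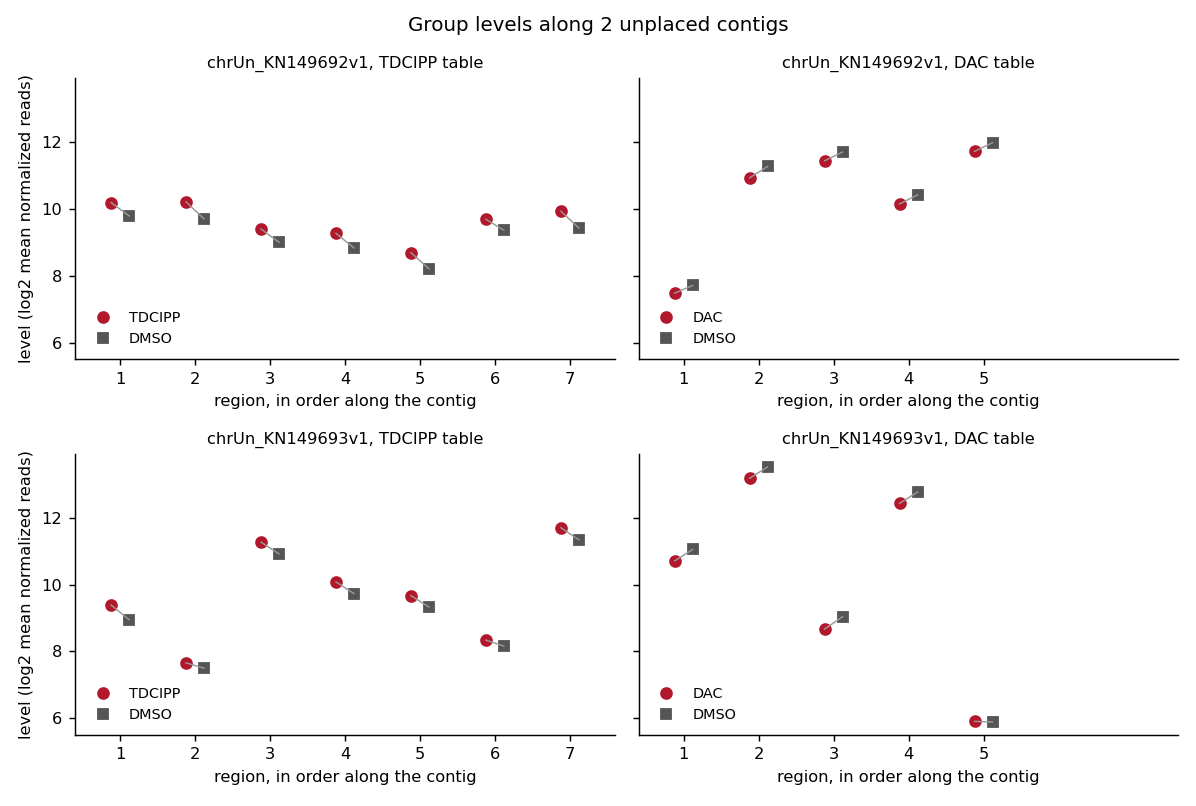
Levels (vertical, log2 mean normalized reads) of the treated libraries (circles) and their DMSO libraries (squares) are shown for each region of chrUn_KN149692v1 and chrUn_KN149693v1, in order along the contig. TDCIPP lies above DMSO in all 7 regions of each contig, and DAC lies below DMSO in all 5 regions of chrUn_KN149692v1 and in 4 of 5 of chrUn_KN149693v1.

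Under DAC, DiffBind called 0 of the 1341 unplaced regions, as it did over the whole table (0% of 45019 regions, and so 0% higher and 0% lower). A recomputed Benjamini-Hochberg adjustment of the unadjusted p over the whole table also called 0. By the unadjusted p, 15 unplaced regions (1.12%) were under 0.05, 14 higher and 1 lower. The whole table had 1.01%, with 0.755% higher and 0.251% lower. A share this close to the background is no result about unplaced contigs, and the regions named next did not pass the adjusted threshold.

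The smallest unadjusted p was 0.00052, at chrUn_KN150113v1:9439-10046, where the authors' deposited table has levels of 4.98 in DAC and 3.35 in DMSO libraries (log2 fold 1.63). Next came chrUn_KN150259v1:20611-22202 (4.96 in DAC and 3.64 in DMSO libraries, log2 fold 1.32, unadjusted p 0.00547) and chrUn_KN150122v1:58891-59374 (3.94 in DAC and 2.48 in DMSO libraries, 1.46, 0.00756). Further high folds in the authors' deposited table were 1.40 at chrUn_KN147651v2:96206-96878 (unadjusted p 0.00805) and 1.14 at chrUn_KN150363v1:636-1262 (0.0382). Levels near 4 or 5 stand for few reads.

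On the low side only chrUn_KN150165v1:6681-8607 had an unadjusted p under 0.05 (3.44 in DAC and 4.40 in DMSO libraries in the authors' deposited table, log2 fold -0.96, unadjusted p 0.0445). The lowest folds at or above the median level, from -0.84 at chrUn_KN150106v1:32330-37909 to -0.57 at chrUn_KN150086v1:53-1493, had unadjusted p between 0.0797 and 0.193 in the authors' deposited table. The lowest log2 fold of all, -1.22 at chrUn_KZ116046v1:3120-4038, had a level of 1.85 in DAC and 3.07 in DMSO libraries there, with an unadjusted p of 0.0736.

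The median log2 fold of unplaced regions under DAC was 0.09, against 0.08 for chr1 to chr25 at a like level. The median of all regions of the table was 0.10, so most of this offset was common to the table. A fold above 0 was found in 800 unplaced regions, 59.7% (interval 57.0% to 62.3%), against 60.4% on chr1 to chr25 in the same classes. The median fold of unplaced regions was -0.115 in the lowest level class, 0.345 in the ninth and 0.285 in the highest, against -0.17, 0.26 and 0.35 in those classes on chr1 to chr25. Within the highest class the folds turned down in both sets. At a level of 8 or more the median was 0.11 for unplaced regions and 0.21 for chr1 to chr25, and at 10 or more it was -0.255 for unplaced regions and -0.20 for chr1 to chr25. The unplaced regions at 10 or more include those of chrUn_KN149692v1 and chrUn_KN149693v1 at that level, with log2 folds from -0.34 to -0.26. No median without these contigs was computed.

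In the highest class the gap in direction ran opposite to that under TDCIPP. There 145 of 192 unplaced regions had a DAC fold above 0, 75.5% (interval 68.8% to 81.4%), against 88.7% of 3946 regions of chr1 to chr25. The 46 with a fold below 0 were spread over 31 contigs, with 5 on chrUn_KN149692v1 and 4 on chrUn_KN149693v1. Without these contigs the share was 79.2%, and with 1 value per contig 80.3% of 127 contigs. The difference in median log2 fold was -0.065 in the undivided class and -0.035 with 5 finer classes of level. At a level of 10 or more, 6 of 18 unplaced regions had a DAC fold above 0, and 40.8% of chr1 to chr25 regions did. The 18 include regions of chrUn_KN149692v1 and chrUn_KN149693v1, and no count without these was made.

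The contig chrUn_KN149682v1 was singled out after its values were seen. Of its 22 regions in the DAC table, 21 had a fold above 0, and the median log2 fold was 0.81, the highest of the 67 contigs with at least 5 regions. Between 8372 and 33646 on this contig, 12 regions of 453 to 849 bp follow each other at a median spacing of 2221.5 bp from centre to centre (2111.5 to 2308.5 bp). With 3 further regions up to 42510, 15 regions had levels from 5.55 to 6.08 and log2 folds from 0.76 to 1.19 (median 0.91).

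None of these 15 regions was called, and 4 had an unadjusted p under 0.05, over a range of 0.0328 to 0.192 in the authors' deposited table. The 2 level classes they fall in have a median log2 fold of 0.30 over 7903 regions of chr1 to chr25, of which 3.71% had 0.76 or more. The first region, chrUn_KN149682v1:8372-9220, had levels of 6.30 in DAC and 5.19 in DMSO libraries in the authors' deposited table, and the highest fold, at chrUn_KN149682v1:15219-15806, went with 6.29 in DAC and 5.09 in DMSO libraries. The 15 regions are neighbours of like width and level and do not count as independent. The sources used here do not say how reads with several matches were placed.

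Chromosome 15 holds a run of the same period. From 16482136 to 16507451 on GRCz11, 12 regions stand at a median spacing of 2219 bp, with levels from 6.65 to 7.38 and DAC log2 folds from 0.72 to 1.02 (median 0.91), and unadjusted p from 0.12 to 0.25 in the authors' deposited table. The 12 evenly spaced regions of chrUn_KN149682v1 had log2 folds from 0.76 to 1.19 (median 0.945), so the ranges of the runs overlapped. Evenly spaced DAC runs of chr1 to chr25 at other spacings had a wide range of median log2 folds. Examples are 0.835 at 4733 bp on chromosome 22, 0.80 at 4654.5 bp on chromosome 6 and -0.63 at 7172.75 bp on chromosome 1. In the TDCIPP table, 3 regions of the chrUn_KN149682v1 stretch had log2 folds from 0.24 to 0.38 and 8 regions of the chromosome 15 stretch had -0.08 to 0.07. Whether both stretches hold the same sequence was not tested, since no genome of this build was used here.

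**Figure D4:**
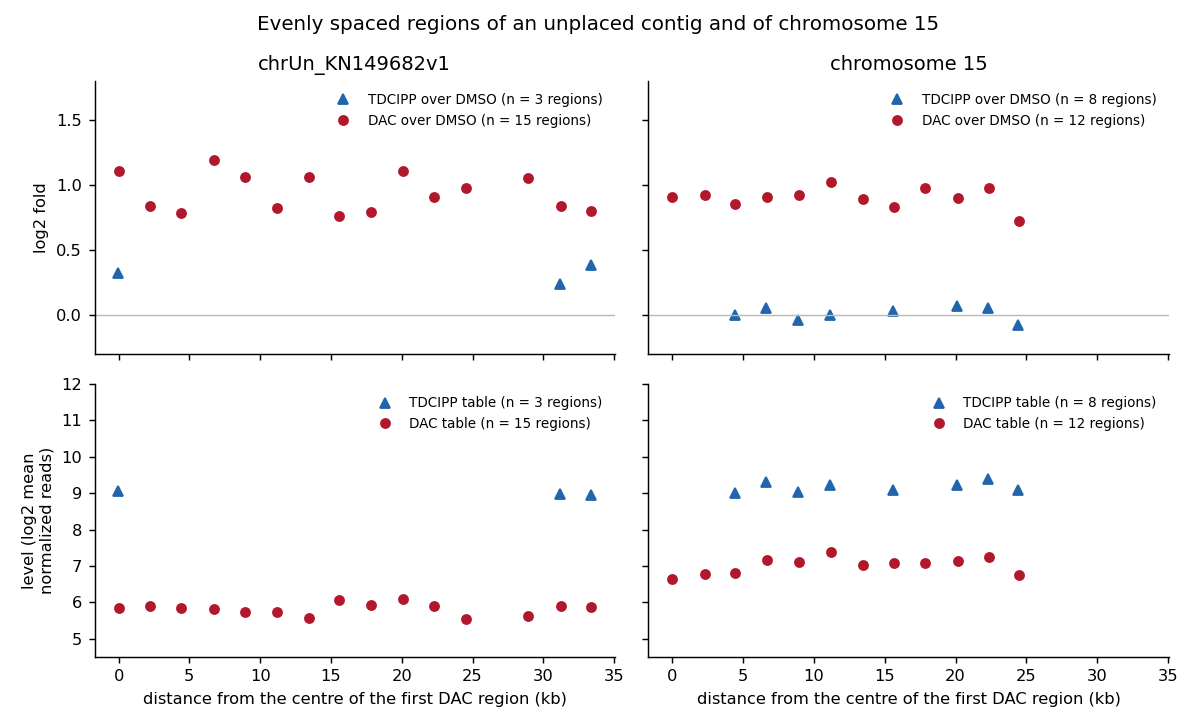
Log2 folds (top, treated over DMSO) and levels (bottom, log2 mean normalized reads) are plotted against distance in kb from the centre of the first DAC-table region, for chrUn_KN149682v1 on the left and chromosome 15 on the right, with triangles for the TDCIPP table and circles for the DAC table. DAC folds lie between 0.76 and 1.19 on the contig and between 0.72 and 1.02 on chromosome 15, at a spacing near 2221.5 and 2219 bp.

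Even spacing was counted over each set as windows of 6 consecutive regions whose 5 spacings lay within 20% of their median. For DAC, 8 of 208 unplaced windows (3.85%) met this, on 2 contigs, against 69 of 39156 windows on chr1 to chr25 (0.176%). For TDCIPP, 0 of 79 unplaced windows met it, against 34 of 29754 on chr1 to chr25 (0.114%). Windows overlap each other, so these counts describe few separate runs. The count was made after the run on chrUn_KN149682v1 was seen. That run has 12 regions, and the other unplaced DAC run, on chrUn_KZ116066v1, has 6, the length of a single window. Most of the unplaced DAC windows thus come from the contig that prompted the count, and their share is no result about unplaced contigs.

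Medians of contigs lay on both sides of 0. No like count was made for chr1 to chr25, so whether contigs differed more than other stretches was not tested. Over all regions, 50.3% of TDCIPP folds and 59.8% of DAC folds were above 0. Among neighbours less than 10 kb apart, 61.9% of unplaced pairs and 62.1% of chr1 to chr25 pairs shared a sign under TDCIPP. These shares were 59.9% and 62.1% under DAC. Of the 26 contigs with at least 5 regions in the TDCIPP table, 14 had a median fold above 0 and 12 below, from -0.64 on chrUn_KN149723v1 to 0.44 on chrUn_KN149692v1. All folds were above 0 on 2 of them (the pair described above) and below 0 on 3, namely chrUn_KN149723v1, chrUn_KN150616v1 and chrUn_KN150127v1. Of the 67 such contigs in the DAC table, 50 had a median above 0 and 15 below. All DAC folds were above 0 on 8 of these contigs, among them chrUn_KN150105v1 (8 regions, median 0.62) and chrUn_KN150331v1 (7 regions, median 0.71), and below 0 on 2, chrUn_KN149692v1 and chrUn_KN150459v1.

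The contigs with the most regions had mixed folds under TDCIPP. On chrUn_KN149691v1, 16 of 21 regions had a TDCIPP fold above 0 (median 0.13), on chrUn_KN147652v2, 3 of 12 (median -0.10), and on chrUn_KN149690v1, 7 of 11 (median 0.08). On chrUn_KN149682v1 it was 8 of 12, with a median of 0.17. None of the regions on these 4 contigs was called. Under DAC, chrUn_KN147651v2 had 27 regions with 19 folds above 0 (median 0.22), chrUn_KN149691v1 had 20 with 10 above 0 (median 0.01), and the contigs with 15 regions each, chrUn_KN149684v1, chrUn_KN149695v1, chrUn_KN149696v2 and chrUn_KN147652v2, had medians of 0.19, 0.07, 0.03 and 0.04.

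**Figure D5:**
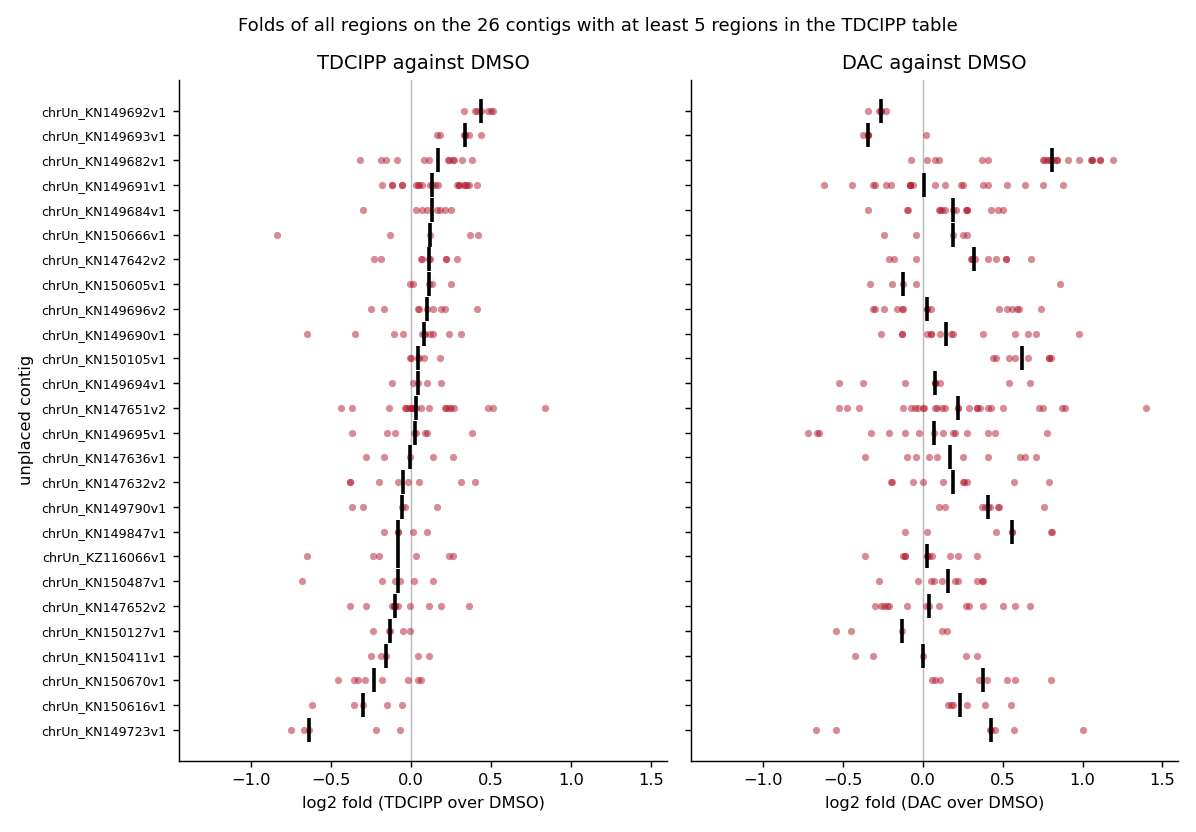
Log2 folds (horizontal, treated over DMSO) of all regions are shown for the 26 contigs with at least 5 regions in the TDCIPP table (rows, ordered by median TDCIPP fold), under TDCIPP on the left and DAC on the right, with a bar at each contig's median. TDCIPP medians run from -0.64 on chrUn_KN149723v1 to 0.44 on chrUn_KN149692v1, and the highest DAC median, 0.81, is that of chrUn_KN149682v1.

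chrUn_KN149723v1 had the lowest TDCIPP median of these contigs, -0.64, and was singled out after its values were seen. Of its 7 DAC-table regions, 5 had a fold above 0, and the other 2 had log2 folds of -0.54 and -0.67. A DAC fold above 0 was also found in 59.8% of the whole table and 75.9% of unplaced regions shared with the TDCIPP table. Near the start of the contig, the authors' deposited table gives chrUn_KN149723v1:80-2071 levels of 9.78 in TDCIPP and 10.42 in DMSO libraries (log2 fold -0.64, unadjusted p 0.00752). The overlapping DAC-table region, chrUn_KN149723v1:73-2102, had levels of 9.75 in DAC and 8.74 in DMSO libraries (log2 fold 1.0, unadjusted p 0.036 in the authors' deposited table). Neither was called. The called neighbour chrUn_KN149723v1:9853-11895 overlapped a DAC-table region that the authors' deposited table gives a log2 fold of 0.42 (unadjusted p 0.315).

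Of the 12 regions called under TDCIPP, 10 shared at least 1 base with a DAC-table region. The 4 that were called higher overlapped regions with a DAC fold below 0, all on chrUn_KN149692v1, where 2 of them overlapped the same wide region. Of the 6 that were called lower, 4 overlapped regions with a DAC fold above 0 and 2 below, and the largest was 0.97, at chrUn_KN149795v1:20756-21367 (unadjusted p 0.0801 in the authors' deposited table). Among all unplaced pairs with a TDCIPP fold below 0, the DAC fold was above 0 in 217 and below 0 in 53. Where the TDCIPP fold was above 0, the DAC fold was above 0 in 248 pairs and below 0 in 93. A DAC fold above 0 was thus the common case whatever the TDCIPP direction. None of these DAC folds passed a threshold, so a difference between the treatments at these sites is given side by side and was not tested.

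Across both tables, 617 unplaced TDCIPP-table regions (81.4%) and 615 unplaced DAC-table regions (45.9%) overlapped one of the other table by at least 1 base. On chr1 to chr25 these shares were 73.6% and 56.2%, not matched for level or width. Overlaps gave 630 pairs. In 248 of them (39.4%) both folds were above 0, and in 53 (8.41%) both were below 0. In 93 (14.8%) the TDCIPP fold was above and the DAC fold below 0, and in 217 (34.4%) the reverse held. In the same order, the shares of the 22314 pairs on chr1 to chr25, also not matched, were 33.7%, 10.0%, 14.1% and 39.3%. Across the unplaced pairs Pearson's r was -0.08 between folds (-0.15 on chr1 to chr25) and 0.77 between levels (0.78 on chr1 to chr25). Pairs on the same contig share libraries and may share local copy number, which was not measured. The values are therefore descriptions across regions and not tests.

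The 726 unplaced regions found in the DAC table alone had a median level of 3.72 and a median log2 fold of -0.04, against 5.07 and 0.25 for the 615 shared ones. Regions of chr1 to chr25 showed a like split, with 3.64 and -0.10 in the DAC table alone, against 4.68 and 0.22 for shared ones. The 141 unplaced regions found in the TDCIPP table alone had a median level of 5.77 and a median log2 fold of 0.03, against 6.96 and 0.03 for the 617 shared ones. On chr1 to chr25 these values were 5.63 and 0.04, against 6.79 and 0.0 for shared ones.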

How the data were processed

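ATAC-seq libraries of 6 hours post fertilization embryos were processed by the authors. Per the submitters' processing notes, the tools were Bowtie2, Picard, MACS2, deepTools and DiffBind, with no versions, on GRCz11. The sources used here do not state read shifting, duplicate handling, treatment of reads with several matches, or normalization. Per the file headers, the deposited values are log2 levels and log2 folds, unadjusted p-values and adjusted p-values (FDR) for each treatment against its own DMSO libraries, over its own regions. The deposited tables hold 0 columns of single libraries, so no replicate check, SD or test on counts was possible. Folds were checked to be treated less DMSO level, to within 0.01, in all regions.

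Members were found by sequence name. They and the named contigs were chosen with earlier results of these data known. Named were all called regions, the 5 highest and 5 lowest folds at or above the members' median level, the 3 smallest p in each direction, the 3 highest levels, and the 5 contigs with the most regions (ties included). Regions of other contigs were chosen after their values were seen. Like level used 10 classes of equal size of chr1 to chr25. The member median was set against the median, over members, of their class medians, and shares were weighted to the members' classes. The calculation was checked on simulated folds. Regions were paired by at least 1 shared base. Python 3.11.15, pandas 2.3.3, NumPy 2.4.6, SciPy 1.17.1 and matplotlib 3.10.9 were used. Alternatives varied thresholds, classes, contigs, overlap and level scale. No genome of the build was used, so sequences and genes were not analysed here.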

Additional observations from a re-analysis of the deposited data

How the results depend on the processing

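No paired analysis was possible because the deposited tables hold no values of single libraries. Leaving out replicates was not run for the same reason. Of the alternatives, 43 results stayed within their error or within 1.5 times the count, and 29 moved. With 0 DAC calls to start from, a stricter threshold, a fold cut or fewer contigs could only give 0 again. Such settings count among the 43, so the tally is no measure of stability. No called value changed sign, but untested differences did, in the level of the DAC table and in the DAC fold. Highest-class settings and those without chrUn_KN149692v1 and chrUn_KN149693v1 were added after seeing the data. The 12 TDCIPP calls became 4 at an adjusted p under 0.01 and 27 under 0.1. Regions under an unadjusted p of 0.01 numbered 47 for TDCIPP and 4 for DAC. The share of all regions passing was not counted at these thresholds, so these counts are no result about unplaced contigs. The level difference between unplaced regions and chr1 to chr25 (0.265, TDCIPP table) was 0.0689 per kb and 0.09 with 1 value per contig, and that of the DAC table (0.10) turned to -0.0995 per kb. The TDCIPP fold difference (0.02 over all classes) was 0.11 in the highest class, 0.10 there without the 2 contigs, 0.08 with 1 value per contig, 0.11 in 5 finer classes and 0.12 by width. The share above 0 was 59.1% in the highest class, against 34.0% on chr1 to chr25, and 50.6% with 1 value per contig. Finer classes and classes of width cannot change the unplaced share. They changed that of chr1 to chr25 to 34.4% and 33.9%. The DAC fold difference (0.01) was 0.05 with classes of width, -0.065 in the highest class, -0.03 there without the 2 contigs and with 1 value per contig, -0.035 in finer classes and -0.025 by width. The DAC share (59.7%) was 68.9% at or above the median level, 75.9% in shared regions, 75.5% in the highest class, 79.2% there without the 2 contigs and 80.3% with 1 value per contig. On chr1 to chr25 at a like level, the share was 60.4% over all classes and 73.9% at or above the median level. For shared regions of chr1 to chr25 it was 78.1%, and in the highest class 88.7%. The causes of these moves were not tested. The low normalized counts of the DAC table, with 19.4 reads in the median unplaced region, limit what that table can show.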

Other observations

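Regions that began within 1 kb of the first base of their contig numbered 77 for TDCIPP and 165 for DAC. Their median log2 fold was 0.06 under TDCIPP, against 0.03 for the unplaced regions that began farther in, and 0.04 under DAC, against 0.09. Of the 165, 52.7% had a fold above 0, against 60.6% of the others.

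By the prefix of the contig name, the 54 regions on KZ contigs had a median TDCIPP log2 fold of 0.01. The 704 on KN contigs had one of 0.03. Calls under TDCIPP took 2 of the 54 and 10 of the 704, against 1.28% of all 35040 regions. With only 2 called KZ regions, no difference between the prefixes can be read from these counts, and none was tested. Under DAC the medians were 0.085 for 98 KZ regions and 0.09 for 1243 KN regions.

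Neighbouring unplaced regions less than 10 kb apart had TDCIPP folds of the same sign in 61.9% of 210 pairs, against 62.1% of 9001 pairs on chr1 to chr25. Under DAC this held for 59.9% of 531 unplaced pairs and 62.1% of 13790 pairs on chr1 to chr25. Pearson's r between the folds of such neighbours was 0.33 under TDCIPP over 216 unplaced pairs, and 0.26 over the 204 pairs left without chrUn_KN149692v1 and chrUn_KN149693v1, against 0.33 on chr1 to chr25. Under DAC it was 0.31 over 545 unplaced pairs, against 0.28 on chr1 to chr25. Neighbours share libraries, local copy number was not measured, and the values are descriptions across regions.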
